A study of Mus musculus with 36 samples.

Results

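Cytosolic ribosomal protein genes encode the protein parts of the ribosome that translates messenger RNA in the cytosol. Their level was described across 3 brain regions of mice treated with modafinil or vehicle, on 36 single-colour Affymetrix arrays hybridised with RNA of bulk tissue. A gene was taken as a member where a probe set carried its symbol alone and the symbol was Rpl or Rps followed by a number (with or without a closing letter), Rplp0, Rplp1, Rplp2 or Rpsa. This gave 105 probe sets of 49 genes, among 18193 genes with a probe set of a single symbol, and each gene was read from its probe set with the highest mean over the 36 arrays. Of the 49 genes, 26 belong to the large (60S) subunit and 23 to the small (40S) subunit.

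All arrays were of male C57B1/6J mice that had gone through conditioned place preference, in which a drug is paired with 1 compartment of a box. The treated mice received modafinil, a wakefulness-promoting drug, at 65 mg/kg, and the control mice received saline vehicle, during conditioning on days 3 to 10. Tissue was taken on day 11, after the test and 24 h after the last dose, as 1 mm punches from 100 µm slices. The groups were 5 vehicle and 5 modafinil arrays of the ventral tegmental area (VTA), 5 and 5 of the nucleus accumbens (NAC) and 8 and 8 of the prefrontal cortex (PFC). No genotype other than the strain and no age were used here. For VTA and NAC the RNA of tissue pieces could be pooled, and PFC had an extraction protocol of its own, so region and protocol cannot be told apart for PFC. The labels do not say that the arrays of a group came from separate mice, so p-values measure the spread between these samples, which may be technical.

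A ribosome is assembled from ribosomal RNA and about equimolar amounts of its proteins, so the genes for these proteins are usually regulated as a set. Their messenger RNAs begin with a C followed by a run of pyrimidines, the 5′ terminal oligopyrimidine (TOP) tract, through which mTOR signalling and the protein LARP1 control their translation. In neurons ribosomes also occur in dendrites and axons, where they support local protein synthesis.

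The start regions of the genes are shown because the TOP tract is known for these genes as a class, apart from the rule used here. RefSeq promoters (build GRCm38.p6) matched 43 of the 49 genes, with 51 annotated starts. A tract was counted where a C was followed by at least 4 further pyrimidines (C or T) and began within 10 bases of the start. The tract was read on the strand with the sequence of the messenger RNA. It was present at 28 of the 51 starts (54.9%), against 30.7% of 32851 starts in the whole table. Of the 43 genes 27 had it (62.8%, against 34.4% of all genes) and 16 did not. Where several C of a run qualified, the tract was read from the C nearest the annotated start. Read so, it began at the annotated base at 8 starts (15.7% against 2.5%). In all 8 the base before that C was a pyrimidine too, so the run itself reached further upstream. These 8 genes and 3 others that the regional results turn on are printed 5′ to 3′ over 27 bases, of which 12 precede the start, with the tract in capitals.
Rps6, chr4:86857353-86857379, minus strand: cggaagtcgggcCTCTTTTTCgtgacg
Rps27, chr3:90213634-90213660, minus strand: tccgctttcgctCCTTTCCggcggtga
Rps18, chr17:33955651-33955677, minus strand: gtcacttccgctCTCTCTTCCacagga
Rps10, chr17:27635230-27635256, minus strand: ccgcgcacgcccCTTCCTTTCCagcct
Rpl35, chr2:39005117-39005143, minus strand: ccccgccctttcCTCTTTCTCTCgaac
Rpl38, chr11:114668568-114668594, plus strand: ggaagcctcgttCTTTCCCCgttctct
Rplp2, chr7:141447639-141447665, plus strand: gtcagcgtcttcCTTTCgccgccggac
Rpl14, chr9:120571505-120571531, plus strand: cgggccctctctCTTCTCgctgagcgc
Rps2, chr17:24720051-24720077, plus strand: cagtcgagatctcgcgCTTCTTggagc
Rpl22, chr4:152324424-152324450, plus strand: tgcttctggaatgttccagCTCCCact
Rpl22l1, chr3:28805496-28805522, plus strand: cggcgcaagcccgttCTCTTCCCacgg
In Rps2, Rpl22l1 and Rpl22 the tract began 4, 3 and 7 bases after the annotated start. The letters CCGGAAG, searched on both strands from 250 bases before to 50 bases after the start, were found at 21 of the 51 starts (41.2%), against 8.9% of all starts. On the other strand these letters read CTTCCGG, whose first 5 letters can be part of a tract, so both features can overlap.

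Most of these genes were among the brightest features of the array. The mean log2 level of their probe sets over the 36 arrays ran from 3.00 (Rps16) to 13.81 (Rps29), with a median of 11.98, and was at least 11 for 35 genes and below 10 for 14. A probe set's brightness depends on its own probes, so these values do not order the genes by abundance. The filter on dim probe sets was passed by 46 of the 49 genes. The 3 that did not pass were Rpl39l (mean 4.89, range 3.94 to 5.53), Rpl3l (4.22, 3.36 to 4.78) and Rps16 (3.00, 2.64 to 3.46). Rpl3l and Rpl39l are copies of Rpl3 and Rpl39 best known from muscle and testis, whereas Rps16 is a core protein of the 40S subunit, so its probe set gave a near-floor value for a gene that all cells use.

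Ribosomal protein genes have many processed copies in the genome, and this limited what a probe set could tell apart. Of the 49 chosen probe sets, 13 carry the array maker's _x suffix and 2 carry _s, which mark probes shared among related sequences. Another 17 carry _a, which marks probes shared among transcripts of the same gene, and 17 carry none. A further 110 probe sets named a ribosomal protein gene together with other symbols and were not used for naming. They held 28 ribosomal protein genes found nowhere else, among them Rpl3, Rpl5, Rpl10 and Rplp1. They also named 15 of the 49 genes. Of these, Rps2, Rps6, Rps16, Rps25, Rps27, Rpl12, Rpl14, Rpl27a, Rpl37 and Rpl39 were among those with a brighter probe set there than the chosen one. Of the genes in the role lists used below, Rpl3, Rpl5, Rpl10, Rpl10l, Rpl17, Rpl23a, Rpl26, Rpl31 and Rplp1 have no value here, and neither has Rps27a.

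The spread of these genes between the arrays of a group was largely shared among them, as the counts by array below show. In the deposited values, which are on the log2 scale, the median over the 49 genes was 11.94 ± 0.073 (SD, n = 5) in vehicle VTA, 11.92 ± 0.052 (n = 5) in modafinil VTA, 11.82 ± 0.20 (n = 5) in vehicle NAC and 11.89 ± 0.11 (n = 5) in modafinil NAC. It was 12.03 ± 0.11 (n = 8) in vehicle PFC and 12.07 ± 0.045 (n = 8) in modafinil PFC. The spread in vehicle NAC came mostly from array 1, whose median was 11.48, while the highest array of that group reached 11.97. Among the 35 bright genes (mean of at least 11), that array was the lowest of its group for 34.

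Vehicle NAC array 1 also stood apart for other bright features. The 99th percentile of all its probe sets was 11.43, against 11.88 or more in the other vehicle NAC arrays. The 3′ minus 5′ difference of its Actb control probe sets, a measure of RNA integrity and labelling, was 0.347 against 0.667 to 0.862. That of its Gapdh control probe sets did not stand apart, with −0.080 against −0.171 to −0.021. The part of these differences in the ribosomal protein results was not tested, and the main NAC values that moved with that array are given below also without it. After quantile normalization of all 36 arrays together, array 1 was the lowest for 4 of the 35 bright genes and array 2 for 29.

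The PFC arrays moved together in the same way without such a change in the other bright probe sets. Vehicle PFC array 6 was the lowest of 8 for 33 of the 35 bright genes (median over the 49 genes 11.85), and vehicle PFC array 4 was the highest for 33 (12.24). The 99th percentile of all probe sets lay between 12.33 and 12.35 in all 8 vehicle PFC arrays, and both counts were 33 after quantile normalization too. These arrays already had near-equal distributions as deposited (medians of all probe sets 7.20 to 7.27), so renewed normalization could change the counts little. Among the other groups, modafinil NAC array 4 was the lowest for 33 and array 2 the highest for 30, and modafinil PFC array 2 was the highest for 29.

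The first question was whether modafinil changed the level of these genes. No member passed the test in any of the 3 regions, nor when all 36 arrays were fitted together with a term for region (limma, adjusted p below 0.05 over 27022 probe sets). The share of all probe sets called was 0.259% for VTA, 0% for NAC, 0.0518% for PFC and 0.84% for the joint fit. At an unadjusted limma p below 0.05 there were 2 members in VTA (4.35%, against 21.1% of all probe sets). NAC, PFC and the joint fit had 1 each (2.17%), where 3.23%, 11.8% and 16.6% of all probe sets passed. These are lower shares than those of all probe sets, and no test of that difference was made.

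The median modafinil minus vehicle difference over the 46 genes, in log2 units, was −0.03 in VTA, where it was −0.05 over all probe sets tested, and 13 genes had a higher and 33 a lower mean with modafinil. In NAC it was 0.09 against −0.01, with 39 genes higher and 7 lower. In PFC it was 0.04 against −0.03, with 41 higher and 5 lower. Across the regions it was 0.04 against −0.03, with 38 higher and 8 lower. These counts are of values, not of calls, and the genes share each array's shift, so they are not independent.

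The NAC value rested on vehicle NAC array 1. Without that array the NAC median was −0.01, with 21 genes higher and 25 lower, and after quantile normalization it was −0.01 with 17 genes higher and 29 lower. Among the 35 bright genes 35 had a higher mean with modafinil in NAC (median 0.12), but so did 85.5% of 1205 other probe sets of that brightness (median 0.09). Leaving that array out brought the median of the joint fit to 0.00651. In PFC, 34 of the 35 bright genes were higher, whereas 42.2% of the other bright probe sets were (median −0.01). The PFC median lay between 0.01 without vehicle array 6 and 0.06 without vehicle array 4, the low and the high array described above.

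**Figure D1:**
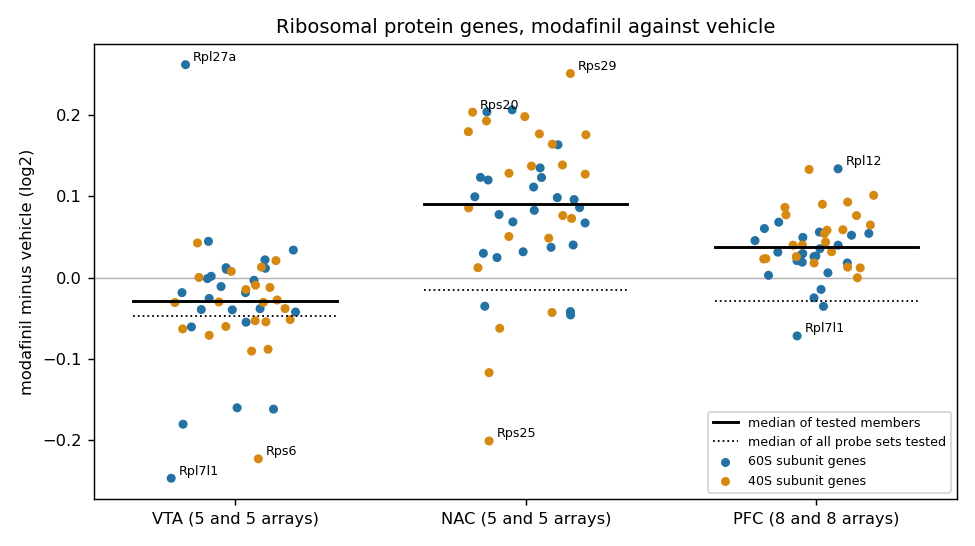
Modafinil minus vehicle difference (log2) of each ribosomal protein gene tested, in VTA, NAC and PFC. The medians were −0.03, 0.09 and 0.04, and no gene passed the limma test.

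In VTA the smallest p-values belonged to Rps6 and Rpl7l1. Rps6 encodes the 40S protein whose phosphorylation by S6 kinase is widely used as a readout of mTOR signalling. Its values were 9.08, 9.03, 9.10, 9.05 and 9.10 in vehicle arrays 1 to 5 and 8.76, 8.68, 8.95, 8.91 and 8.94 in modafinil arrays 1 to 5. All modafinil arrays thus lay below all vehicle arrays. These values came from a probe set dimmer than another that names Rps6 with a further symbol (mean 13.16). The difference was −0.22 (SE 0.0654, 95% interval −0.36 to −0.08) with an adjusted p of 0.104 in limma, and over the alternatives tried the adjusted p ran from 0.078 to 0.243.

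Rpl7l1 encodes a protein related to the 60S protein RPL7. It read 9.28, 9.13, 9.29, 9.21 and 9.23 in the vehicle VTA arrays and 8.98, 8.73, 9.12, 9.01 and 9.06 in the modafinil VTA arrays. Its groups did not overlap either, though vehicle array 2 and modafinil array 3 were close. The difference was −0.25 (SE 0.0755) with a limma adjusted p of 0.113, which ran from 0.057 to 0.213 over the alternatives. Of all probe sets tested, 3.93% had every modafinil VTA array below every vehicle array, and 2 of the 46 genes did.

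The other VTA genes with small p-values overlapped between groups. Rpl37 (60S) differed by −0.16 (limma adjusted p 0.277) and Rpl12, a 60S protein near the stalk base, by −0.16 (limma adjusted p 0.281). The largest positive value was 0.26 (SE 0.192, limma adjusted p 0.438) for Rpl27a, and it came from vehicle VTA arrays 4 and 5, which read 8.66 and 8.54 while the other vehicle arrays read 9.43 to 9.58. In the same VTA arrays 11 of 11 dopamine neuron markers tested had a lower mean with modafinil (median −1.22, none past the test), and the list's mean level ran from 8.61 to 10.17 in vehicle and from 7.56 to 9.07 in modafinil arrays. Oligodendrocyte markers were lower in value for 9 of 9 (median −0.19, none past the test). The part of these markers in the VTA values of the ribosomal protein genes was not tested, and in bulk tissue fewer cells of a type and less RNA per cell cannot be told apart.

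In NAC the smallest p-value belonged to Rps25, a 40S protein needed for translation from some internal ribosome entry sites. Vehicle NAC arrays read 8.42, 8.42, 8.43, 8.38 and 8.39, a narrow range that array 1 shared, and modafinil NAC arrays read 8.21, 8.43, 8.14, 8.04 and 8.21. Modafinil array 2 lay above all vehicle arrays and the other 4 below them. The difference was −0.20 (SE 0.076) with a limma adjusted p of 1.00. Among positive NAC differences the smallest p-values belonged to the 40S genes Rps20 (0.20, SE 0.145), Rps7 (0.18), Rps10 (0.18) and Rps14 (0.18), all with a limma adjusted p of 1.00. Without vehicle NAC array 1 these differences were 0.05, 0.03, 0.02 and 0.02. Other positive values of like size were those of Rps29 (0.25, SE 0.247), in which vehicle NAC array 1 read 12.42 and the other 4 read 13.81 to 13.96, and of the 60S genes Rpl13a (0.21) and Rpl38 (0.20). Without that array these were −0.04, 0.00569 and 0.00618. The value of Rps25 without it was −0.20.

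In PFC the differences were smaller. Rpl12 ran from 8.06 to 8.45 (median 8.34) in 8 vehicle arrays and from 8.25 to 8.65 (median 8.43) in 8 modafinil arrays. The groups overlapped over most of their range, with 7 of 8 modafinil arrays above the vehicle mean. The difference was 0.13 (SE 0.059) with a limma adjusted p of 0.401. Rps20 was above the vehicle mean in 8 of 8 modafinil arrays, by 0.09 on average (limma adjusted p 0.469), and Rps10 and Rps28 differed by 0.09 and 0.08 (limma adjusted p 0.47 and 0.498). Oligodendrocyte markers were higher in value with modafinil for 9 of 9 in PFC (median 0.21, none past the test). Their list mean ran from 9.07 to 9.80 in vehicle and from 9.35 to 10.36 in modafinil arrays. The list mean of striatal neuron markers ran from 8.47 to 8.71 in vehicle and from 8.44 to 10.49 (median 8.68) in modafinil PFC arrays. The part of either list in the ribosomal protein values was not tested.

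Across the 3 regions Rpl7l1 had the smallest p-value, with a difference of −0.11 (SE 0.0407) and a limma adjusted p of 0.167. It was followed by Rps25 (−0.06, limma adjusted p 0.361), Rps20 (0.09, limma adjusted p 0.374) and Rpl7a (0.06, limma adjusted p 0.408). By role, none of the genes tested of the P stalk (which recruits elongation factors), of the 5S RNP (which binds MDM2 when free), of the nascent chain exit tunnel or of the 40S mRNA channel was called.

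Other genes of translation were almost all without a call too. None of the 76 mitochondrial ribosomal protein genes, made for a separate ribosome, was called in any region, with medians of −0.07 (VTA), −0.00 (NAC) and −0.05 (PFC). Of 16 elongation factors and other TOP messenger RNAs none was called, with 4 higher and 12 lower in value in VTA, 13 and 3 in NAC, and 10 and 6 in PFC. None of 29 initiation factors and none of 44 ribosome biogenesis genes was called in any region. Among 24 mTOR pathway genes Akt2, a kinase upstream of mTOR, fell across the regions by 0.16 on the log2 scale (SE 0.0402, limma adjusted p 0.0406), and none was called within a region. Fau, a 40S protein gene whose symbol falls outside the rule, differed by −0.03, 0.10 and 0.06 in VTA, NAC and PFC.

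Whether the modafinil change differed between regions was tested directly. No member passed for NAC against VTA (0.274% of all probe sets), PFC against VTA (0.903%) or PFC against NAC (0%). These contrasts share arrays. The smallest adjusted p-values printed here belonged to Rpl12 (PFC minus VTA change 0.30, SE 0.103, limma adjusted p 0.195) and Rps6 (0.36, SE 0.136, limma adjusted p 0.255). Both had a negative value in VTA and a positive one in PFC.

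The second question was how the level of these genes differed between VTA and NAC, which shared a protocol. In vehicle arrays 4 of the 46 genes were higher in NAC (30.3% of all probe sets were) and 9 were lower (28.8%), so 13 were called where 59% of all probe sets were. The median NAC minus VTA difference was −0.10, against 0.01 over all probe sets. In modafinil arrays, which are other samples, 10 were higher (26.8% of all) and 7 lower (20.6%), so 17 were called where 47.4% of all probe sets were, with a median of 0.04 against 0.03. The share of members called was thus below that of all probe sets in both treatment groups.

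The same 8 genes were called in the same direction in both treatment groups, 8 of 13 in vehicle and 8 of 17 in modafinil arrays, and none was called in opposite directions. Rps2 and Rpl22 were higher in NAC, and Rpl22l1, Rpl8, Rps4l, Rpl11, Rpl6 and Rps27l were lower. The sign of the value was the same for 34 of 46 genes. The plot of both differences for each gene shows the 8 genes away from the middle.

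**Figure D2:**
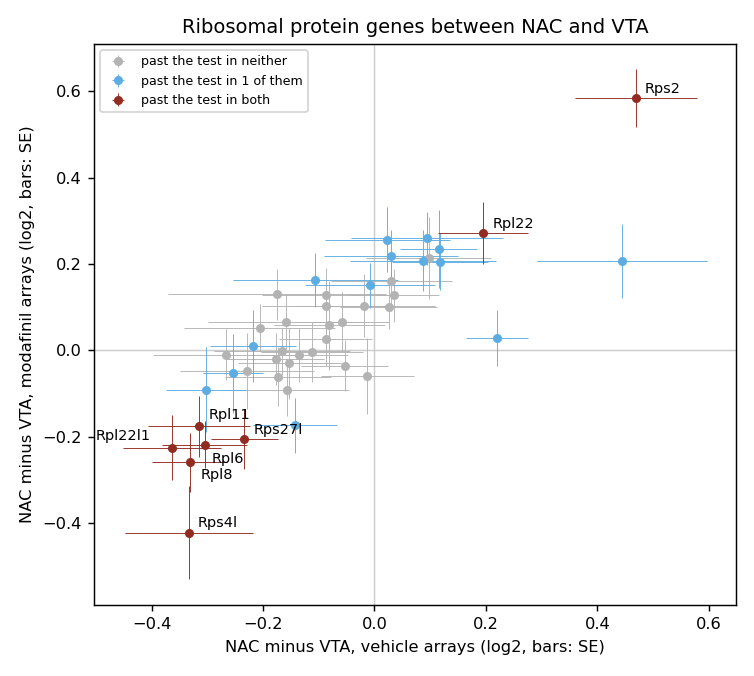
NAC minus VTA difference (log2) in modafinil arrays against that in vehicle arrays for each ribosomal protein gene tested. Rps2 (0.47 and 0.58) lies at the upper right and Rpl22l1, Rps4l and Rpl8 lie at the lower left.

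Rps2, a 40S protein at the entry of the mRNA channel, had the largest difference. It read 11.94, 11.82, 11.91, 11.98 and 11.96 in vehicle VTA and 11.78, 12.51, 12.54, 12.54 and 12.57 in vehicle NAC. Vehicle NAC array 1 fell below VTA and the other 4 lay above all VTA arrays. The difference was 0.47 (SE 0.109, limma adjusted p 0.0011). In modafinil arrays VTA read 11.91, 11.96, 11.95, 11.93 and 11.92 and NAC read 12.58, 12.70, 12.39, 12.34 and 12.59, with no overlap. That difference was 0.58 (SE 0.0664, limma adjusted p 3.94e-07). The probe set carries the _x suffix, and brighter ones that name Rps2 with other symbols (means 12.65 and 12.54) were not used for these values.

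Rpl22 and Rpl22l1 are paralogs, and RPL22 is known to repress Rpl22l1 in other tissues. In vehicle VTA Rpl22 read 11.30, 11.22, 11.29, 11.25 and 11.28, and in vehicle NAC it read 11.17, 11.40, 11.58, 11.56 and 11.61. Rpl22l1 read 11.89, 11.71, 11.95, 11.98 and 12.02 in vehicle VTA, and in vehicle NAC it read 11.22, 11.38, 11.63, 11.65 and 11.84. The 2 genes thus differed in opposite directions, except that Rpl22 was below the VTA range in NAC array 1, and array 5 of NAC lay within the VTA range for Rpl22l1. Rpl22 was higher in NAC by 0.20 (limma adjusted p 0.0437) in vehicle and 0.27 (limma adjusted p 0.00383) in modafinil arrays, and Rpl22l1 differed by −0.36 (limma adjusted p 0.00144) and −0.23 (limma adjusted p 0.0182). The modafinil call of Rpl22l1 was lost without VTA array 4, VTA array 5 or NAC array 4 (limma adjusted p 0.0585, 0.0508 and 0.0553). The vehicle call of Rpl22 was lost when any array other than NAC 1 or NAC 2 was left out (adjusted p 0.057 to 0.115). The 2 other probe sets of Rpl22 did not pass the test, with 0.14 and −0.02 in vehicle and 0.06 and 0.05 in modafinil arrays.

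Paralog genes were mostly lower in NAC. In vehicle arrays 4 of the 4 tested were called lower (28.8% of all probe sets were), and 3 of 4 were in modafinil arrays (20.6%). With each array centred on its median over the ribosomal protein genes, the vehicle calls of Rps4l, Rpl7l1 and Rps27l (limma adjusted p 0.206, 0.278 and 0.305) and the modafinil call of Rps27l (limma adjusted p 0.0557) were lost. Rps4l, a copy of Rps4x, read 9.12, 9.03, 9.27, 9.21 and 9.34 in vehicle VTA and 8.83, 8.83, 9.06, 8.78 and 8.81 in vehicle NAC, where array 3 alone reached the VTA range. It differed by −0.33 (limma adjusted p 0.018) and, in modafinil arrays, by −0.42 (limma adjusted p 0.00309). Its partner Rps4x differed by −0.09 and 0.10 and was not called.

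Rpl7l1 differed by −0.25 (limma adjusted p 0.0005) in vehicle arrays, and its 2 other probe sets were called lower too, with −0.31 and −0.34. In modafinil arrays it differed by −0.05 and was not called. Rps27l, a copy of Rps27 induced by p53, differed by −0.23 (limma adjusted p 0.00235) and −0.21 (limma adjusted p 0.0206), and the latter call was lost without modafinil NAC array 3 or VTA array 2 (limma adjusted p 0.0507 and 0.0503). Its probe sets disagreed, since another was called higher by 0.19 in modafinil arrays. Rps27 itself differed by −0.14, without a call, in vehicle arrays and was lower, with −0.17 (limma adjusted p 0.0292) in modafinil arrays, a call lost without NAC array 1, 4 or 5 or VTA array 2 or 4 (limma adjusted p 0.0557 to 0.0758).

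The other genes called lower in both treatment groups are 60S proteins. Rpl8 read 11.80, 11.73, 11.78, 11.77 and 11.78 in vehicle VTA and 11.20, 11.42, 11.53, 11.48 and 11.56 in vehicle NAC, with no overlap, and differed by −0.33 (limma adjusted p 0.000286) and −0.26 (limma adjusted p 0.00393). Rpl11, which with RPL5 and 5S RNA restrains MDM2, differed by −0.31 and −0.18 (limma adjusted p 0.00632 and 0.0454). Its modafinil call was lost without the filter on dim probe sets (limma adjusted p 0.0513) and when any array other than VTA 1 or NAC 2 was left out (limma adjusted p 0.0506 to 0.130). Rpl6 differed by −0.30 and −0.22 (limma adjusted p 0.00201 and 0.00258).

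Several calls held in 1 treatment group. Rpl27a (0.44, limma adjusted p 0.0174) was called in vehicle arrays, but without vehicle VTA array 4 or array 5, its low arrays, the adjusted p was 0.059 and 0.060. Rps25 (0.22, limma adjusted p 0.00234) was called higher and Rpl14 (−0.30, limma adjusted p 0.00123) and Rpl37 (−0.22, limma adjusted p 0.0195) lower in vehicle arrays. Centred on the median over the genes, Rpl14 was not called (limma adjusted p 0.144). In modafinil arrays the further higher genes were Rpl41 (0.26, limma adjusted p 0.0016), Rps20 (0.26), Rpl12 (0.23), Rps14 (0.22), Rps18 (0.21), Rplp2 of the P stalk (0.21), Rps28 (0.16) and Rps7 (0.15). Rpl41 read from its probe set with no suffix differed by 0.05 (limma adjusted p 0.735). The call of Rpl12 was lost after quantile normalization (limma adjusted p 0.0911) and without NAC array 1, 2 or 5 or VTA array 1, 2 or 5 (limma adjusted p 0.0532 to 0.124). That of Rplp2 was lost without NAC array 2 or VTA array 1 (limma adjusted p 0.0562 and 0.0544) and that of Rps18 without NAC array 2 (limma adjusted p 0.0510). A second probe set of Rps20 was called lower, with −0.66 there. Whether these genes differ between treatment groups is the interaction above, in which none passed.

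These counts moved with single arrays. Without vehicle NAC array 1, 9 genes were higher and 8 lower in vehicle arrays, with a median of 0.03. In that fit 15527 of 27022 probe sets were called in either direction. All 8 genes called in both treatment groups passed then too, among them Rps2 (0.62, limma adjusted p 1.3e-08), and Rplp2 went from 0.09 (limma adjusted p 0.587) to 0.26 (limma adjusted p 0.0036). Without modafinil NAC array 4, the low array of its group, 16 were higher and 4 lower in modafinil arrays, with a median of 0.08. Over the modafinil fits with 1 array left out, 11682 to 12892 of 27022 probe sets were called in either direction. In vehicle arrays 8 genes lay entirely below and 1 entirely above the VTA range in NAC (20.8% and 20.6% of all probe sets), and in modafinil arrays 2 and 9 did (13.7% and 17.9%).

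Cell type markers differed between VTA and NAC as well. All 10 striatal neuron markers tested were higher in NAC in vehicle arrays (median 2.84), and all 9 oligodendrocyte markers were lower (median −0.89), 7 of 9 in modafinil arrays. The oligodendrocyte list mean ran from 11.10 to 11.50 in vehicle VTA and from 10.02 to 10.76 in vehicle NAC. That of cortical excitatory neuron markers varied more within NAC, from 7.58 to 9.28 in vehicle and 7.25 to 9.08 in modafinil arrays. In vehicle VTA it ran from 6.30 to 6.53. The part of cell composition in the ribosomal protein differences was not tested.

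Other translation genes are given beside the share of all probe sets called between VTA and NAC (30.3% higher and 28.8% lower in vehicle arrays, 26.8% and 20.6% in modafinil arrays). Of 76 mitochondrial ribosomal protein genes 5 were higher and 32 lower in NAC in vehicle arrays, and 4 and 14 in modafinil arrays. Of 16 elongation factors and other TOP messenger RNAs 3 were higher and 7 lower, and 3 and 6 in modafinil arrays. Npm1, a nucleolar chaperone of ribosome assembly, was lower, with −0.57 (limma adjusted p 2.6e-08) and Pabpc1, a poly(A)-binding protein, was higher by 0.63 (limma adjusted p 1e-05). Of 29 initiation factors 1 was higher and 12 lower in vehicle arrays. Of 24 mTOR pathway genes 8 were higher and 6 lower, shares near those of all probe sets, the latter with Larp1, which encodes the TOP-binding protein (−0.41, limma adjusted p 2.3e-06).

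The last question was how PFC compared with the other regions, and there the direction depended on the scale of the values. The PFC arrays as deposited were shifted upwards as a whole: quantile normalization of all arrays together moved the median vehicle PFC probe set by −0.25, that of VTA by 0.22 and that of NAC by 0.17. PFC contrasts are therefore read after this normalization and given on the deposited scale beside it. Both contrasts share the 8 vehicle PFC arrays. Region, extraction protocol and scale cannot be told apart.

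After quantile normalization most ribosomal protein genes were lower in PFC. Against VTA, 33 of 46 were lower (32.1% of all probe sets) and 5 higher (33%), with a median of −0.24 where all probe sets had 0.01. Against NAC, 36 were lower (27.4%) and 2 higher (30.8%), with a median of −0.24 against 0.02. Other probe sets of like brightness (1229 with a mean of at least 11) had medians of −0.00 and 0.03. The groups did not overlap, with PFC below, for 19 genes against VTA (20.1% of all) and 17 against NAC (14.6%). Without vehicle NAC array 1, 34 were lower and 2 higher against NAC, with a median of −0.23. In that fit 14672 of 27022 probe sets were called in either direction.

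On the deposited scale the direction turned. There 20 genes were higher (77.3% of all probe sets) and 1 lower (8.2%) against VTA, and 29 (79.8%) and 0 (6.3%) against NAC, with medians of 0.14 and 0.27. All probe sets had medians of 0.46 and 0.45 and the other bright ones 0.45 and 0.58 on that scale, so 41 of the 46 genes lay below the median probe set in each contrast. With each array centred on its median probe set, a setting chosen after the data were seen, 32 were lower (30.8%) and 4 higher (34%) against VTA, and 8 (21.3%) and 4 (37.9%) against NAC. On that setting the medians against VTA and NAC were −0.30 and −0.11 for the genes and 0.02 and 0.21 for the other bright probe sets. By calls most genes were thus lower against VTA on this setting and after quantile normalization, while against NAC the count depended on the scaling. In both contrasts the median of the genes lay below that of the other bright probe sets on each of these scales.

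**Figure D3:**
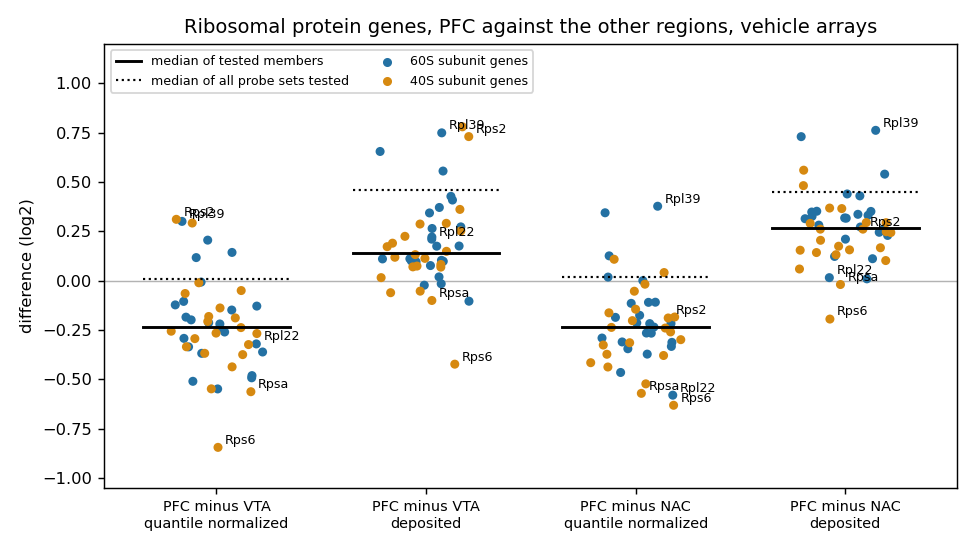
PFC minus VTA and PFC minus NAC differences (log2) of the ribosomal protein genes in vehicle arrays, after quantile normalization and as deposited. The medians were −0.24 and −0.24 after quantile normalization and 0.14 and 0.27 as deposited.

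Only Rps6 was called lower in PFC than in VTA on all 3 scales. After quantile normalization its 5 vehicle VTA arrays read 9.21 to 9.25, its 5 NAC arrays 8.70 to 9.16 and its 8 PFC arrays 7.99 to 8.69. PFC lay below both other regions with no overlap. The differences were −0.85 (SE 0.0977, limma adjusted p 3.5e-07) against VTA and −0.63 (limma adjusted p 2e-05) against NAC. On the deposited scale they were −0.42 (limma adjusted p 0.0012) and −0.19, the latter without a call (limma adjusted p 0.098). A brighter probe set that names Rps6 with a further symbol (mean 13.16) was not used for these values.

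Rpsa, a 40S protein also known as the laminin receptor, read 11.54 to 12.05 in PFC after quantile normalization, whereas VTA had 12.29 to 12.38 and NAC 12.26 to 12.37. VTA and NAC coincided and PFC lay below both. It differed by −0.56 (SE 0.0636, limma adjusted p 2.6e-07) against VTA and by −0.57 against NAC, and on the deposited scale by −0.10 (limma adjusted p 0.300) and −0.02 (limma adjusted p 0.842), without a call. The next lower genes against VTA were Rpl11 (−0.55), Rps9 (−0.55), Rpl22l1 (−0.51), Rpl8 (−0.49), Rpl6 (−0.48, limma adjusted p 1.7e-09) and Rps26 (−0.44). Against NAC they were Rpl22 (−0.58), Rps9 (−0.52), Rplp2 (−0.47), Rps26 (−0.44), Rps19 (−0.42), a 40S protein mutated in Diamond-Blackfan anaemia, and Rps4x (−0.38). On the deposited scale Rpl11 (−0.10), Rps9 (−0.05), Rpl22l1 (−0.02) and Rpl6 (−0.02) against VTA were not called (limma adjusted p 0.243, 0.549, 0.855 and 0.757). There the values of Rpl8 (0.019) and Rps26 (0.074) against VTA, and of Rpl22 (0.015), Rps9 (0.059), Rplp2 (0.00917), Rps26 (0.13), Rps19 (0.15) and Rps4x (0.10) against NAC, were positive. Centred on the median over the genes, Rps9, Rpl22l1, Rpl8, Rpl6 and Rps26 against VTA and Rps26, Rps19 and Rps4x against NAC were not called, and centred on the array median Rps19 was not (limma adjusted p 0.0586).

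A few genes, as read from their chosen probe sets, were higher in PFC on every scale. Against VTA these were Rps2, Rpl39, Rps25 and Rpl12, and against NAC Rpl39 and Rpl14. All but Rps2 were read from dim probe sets, with every deposited value below 10. Probe sets that name Rps2, Rpl39, Rps25, Rpl12 and Rpl14 with other symbols were brighter, with means up to 12.65, 12.94, 12.15, 11.43 and 12.38. Rpl39, a small 60S protein lining the exit tunnel, read 7.37 to 7.70 in PFC after quantile normalization, whereas VTA had 7.17 to 7.35 and NAC 6.88 to 7.33. PFC lay above both regions without overlap. It was higher by 0.30 (limma adjusted p 0.00062) against VTA and 0.38 (limma adjusted p 8.6e-05) against NAC. Rps2 read 12.33 to 12.55 in PFC, whereas VTA had 12.02 to 12.20 and NAC 12.60 to 12.63, and it was higher in PFC than in VTA by 0.31 (limma adjusted p 4.7e-06). Rps25 (0.29, limma adjusted p 2e-05) and Rpl12 (0.21, limma adjusted p 0.0084) were higher against VTA, and Rpl14 (0.34, limma adjusted p 3.7e-05) against NAC. Rpl41 was higher against VTA by 0.14 (limma adjusted p 0.0046), but differed by −0.030 with arrays centred on their median and by 0.02 (limma adjusted p 0.834) on its probe set with no suffix.

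By role, 4 of 5 genes of the 40S mRNA channel were lower in PFC than in VTA and 1, Rps2, was higher, and 5 of 5 were lower than in NAC. Of all probe sets 32.1% were lower and 33% higher against VTA, and 27.4% and 30.8% against NAC. Of 5 exit tunnel genes 4 were lower and 1, Rpl39, higher against VTA. Both P stalk genes tested, Rplp0 and Rplp2, were lower against NAC and 1 of them against VTA. These counts are on the quantile normalized scale. The median difference against VTA was −0.26 for the 25 tested genes with a pyrimidine tract as defined above and −0.24 for the 15 without, and against NAC it was −0.24 for both.

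The counts depended on the choice of probe set. With probe sets that carry no suffix, available for 26 genes, 9 genes were lower (32.1% of all probe sets) and 5 higher (33%) against VTA (median −0.08). Against NAC 8 were lower (27.4%) and 4 higher (30.8%), with a median of −0.00894. Rpl39l, Rpl3l and Rps16 are among the 26 and did not pass the filter on dim probe sets, so fewer than 26 genes were tested. Among 100 tested probe sets that name a ribosomal protein gene with other symbols, 68 were lower and 13 higher against VTA and 69 and 8 against NAC. Different probe sets of Rpl37a, Rps18 and Rps24 were called in both directions against VTA, and those of Rpl37a, Rps20, Rps24 and Rps3 were against NAC.

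Other lists of genes were read on the same quantile normalized scale, where 32.1% of all probe sets were lower and 33% higher against VTA and 27.4% and 30.8% against NAC. Of 76 mitochondrial ribosomal protein genes 32 were lower and 10 higher against VTA (median −0.09), and 15 and 30 against NAC (median 0.06). Of 16 elongation factors and other TOP messenger RNAs 10 were lower and 4 higher against VTA (median −0.29), and 8 and 0 against NAC (median −0.14), with Eef1b2, a subunit of the exchange factor of EEF1A, lower with −0.48 (limma adjusted p 1.06e-07) against NAC. Fau was lower, with −0.39 and −0.44. Oligodendrocyte markers were lower for 9 of 9 in both contrasts (medians −2.27 and −1.07), with list means of 8.83 to 9.53 in PFC, while VTA had 11.27 to 11.68 and NAC 10.48 to 10.92. Cortical excitatory neuron markers were higher for 9 of 9 against VTA (median 2.84), and the part of either list in the ribosomal protein differences was not tested.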

How the data were processed

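The authors deposited 1 table of log2 values of 45101 probe sets on 36 arrays, computed with RMA per the submitters' processing notes (version not given in the sources used here). Deposited log2 values were used for modafinil against vehicle, for NAC against VTA and for interactions. PFC levels were compared after quantile normalization of all 36 arrays together. Of the probe sets, 34945 had 1 symbol, 932 several and 9160 none, and 34741 were matched to current symbols.

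The tests were run in R 4.3.3 with limma 3.58.1 (linear model and moderated variance, lmFit and eBayes) on the 27022 probe sets at or above the 40th percentile of mean level, controls left out, with Benjamini-Hochberg adjustment and a threshold of 0.05. Treatment within a region used that region's arrays, treatment across regions had region as a covariate, level contrasts used the 18 arrays of a treatment, and interactions used all 36. The number of arrays limits the precision. Python 3.11.15 was used for tables and figures, and fits were tested on simulated data.

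The members and lists were chosen with earlier results of these data known. Named members were, in treatment comparisons, the 4 per direction with the smallest p, between regions the 8 per direction with the largest differences past the threshold, and in all of them the paralogs with their partners, stalk and 5S RNP genes, Rps6, Rpsa, Rps27a (no value here), Rpl38, Rps25 and Rps19. Rps29, Rpl13a, Rps24, Rps28 and members of interactions were named after their values were seen. From other lists up to 2 genes per direction were named by smallest p. Alternatives were other scalings, filters and probe sets, a joint fit, a replicate block and leaving out each array. Raw intensities were not analysed here.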

Additional observations from a re-analysis of the deposited data

Results flagged for a closer look

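In 9 of 114 cases looked at (the median over the genes or 1 gene, in 1 group), a single array lay apart from the others of its group by more than Dixon's 95% limit, where chance gives about 1 in 20. Vehicle NAC array 1 accounted for 4 of these: Rps2 read 11.783 (next array 12.511), Rps4x 11.889 (12.614), Rplp2 12.047 (12.782) and Rpsa 11.625 (12.075). In the same group Rps4l read 9.0597 in array 3, above the next at 8.8298. The median over the ribosomal protein genes was 11.816 in vehicle VTA array 2, below the next at 11.947. Rpl7l1 read 8.6712 in modafinil NAC array 1 (next 8.9655). In PFC, Rpl8 read 11.997 in vehicle array 4 (next 11.809) and Rpsa 12.378 in modafinil array 2 (next 12.11).

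For 3 genes every modafinil array lay above the vehicle mean in NAC and below it in VTA. The differences were 0.2037 in NAC and −0.0547 in VTA for Rpl38, 0.19262 and −0.06296 for Rps24, and 0.19794 and −0.0708 for Rps28. The difference between the regions was tested and did not pass, with limma adjusted p-values of 0.519, 0.520 and 0.546. Without vehicle NAC array 1 the NAC differences were 0.00618, 0.00233 and −0.0141, and 3, 3 and 1 of 5 modafinil NAC arrays lay above the vehicle mean.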

How the results depend on the processing

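No member was called for modafinil under any alternative run, and the median over the genes stayed between −0.06 and −0.01 in VTA, −0.01 and 0.15 in NAC, 0.01 and 0.06 in PFC and 0.01 and 0.05 across regions when each array was left out in turn. For NAC minus VTA, quantile normalization gave 8 higher genes in vehicle arrays, centring on the median over the genes gave 4 lower in vehicle and 17 higher in modafinil arrays, and probe sets with no suffix gave 5 lower in vehicle and 2 higher and 3 lower in modafinil arrays. Leaving out arrays gave 2 to 9 higher, 8 to 11 lower and a median of −0.14 to 0.03 in vehicle, and 6 to 16, 4 to 7 and −0.02 to 0.08 in modafinil arrays. Of the 27022 probe sets, these fits called 14940 to 16082 in vehicle and 11682 to 12892 in modafinil arrays, in either direction.

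For PFC minus VTA, deposited values gave 20 higher (77.3% of all probe sets), 1 lower (8.2%) and a median of 0.14. Centring on the median over the genes gave 15 higher (64.9%) and 3 lower (9.17%), and probe sets with no suffix gave 9 lower (32.1%) and −0.083. For PFC minus NAC, deposited values gave 29 higher (79.8%), 0 lower (6.3%) and a median of 0.27. Centring on the median over the genes gave 6 higher (50.3%) and 5 lower (10.2%). Probe sets with no suffix gave 4 higher (30.8%), 8 lower (27.4%) and −0.00894, and centring on the array median gave 4 (37.9%), 8 (21.3%) and −0.11. Leaving out arrays gave 5 higher, 31 to 35 lower and −0.25 to −0.21 against VTA, and 2 to 3, 33 to 37 and −0.26 to −0.21 against NAC. Of the 27022 probe sets, these fits called 16808 to 17943 against VTA and 14510 to 16129 against NAC, in either direction. Values turned sign on the deposited scale for Rpl8 (0.019) and Rps26 (0.074) against VTA and for Rpl22 (0.015), Rps9 (0.059), Rplp2 (0.00917), Rps26 (0.13), Rps19 (0.15) and Rps4x (0.10) against NAC, and for Rpl41 (−0.030) against VTA with arrays centred on their median, a setting chosen after the data were seen. The causes were not tested.

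With the replicate number as a replicate block the counts were 0 for every treatment comparison, 4 higher and 9 lower and 8 and 5 for NAC minus VTA in vehicle and modafinil arrays, and 5 and 28 and 2 and 29 for PFC minus VTA and NAC. The shares of all probe sets called with this block are not given here, so these counts stand without a background. Same-numbered arrays did not deviate together (correlation over 0.1 in 1 of 5 pairs in VTA, 1 of 5 in NAC and 3 of 8 in PFC, and between VTA and NAC in 1 of 5 in vehicle and 2 of 5 in modafinil arrays), so they were not treated as pairs. Between vehicle VTA and vehicle NAC all 5 correlations were above 0 (0.016 to 0.249) and 4 of 5 arrays correlated best with their own number, a hint from the data and not from the design. The block ended the modafinil NAC minus VTA calls of Rpl22l1 (limma adjusted p 0.0515), Rpl11 (0.0679) and Rpl12 (0.0727). Without the filter on dim probe sets the calls over all probe sets went from 15953 to 25572 and from 12820 to 21168 for NAC minus VTA in vehicle and modafinil arrays, from 17596 to 27959 for PFC minus VTA and from 15725 to 25330 for PFC minus NAC. Of other values of named genes with no array left out, 808 kept direction and side of the threshold, 44 without a call turned sign and stayed uncalled, 31 lost and 6 gained a call. With arrays left out in turn, 2239 kept both, 95 without a call turned sign, 37 lost and 4 gained a call.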
